A study of Mus musculus with 4 samples.

Results

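The genes described here encode enzymes of glutathione metabolism and antioxidant defence, measured in whole skin of mouse embryos with and without extra Ovol2 in the epidermis. They were chosen by symbol: every gene whose name starts with Gpx, Prdx or Mgst, or with Gst followed by a class letter (a, k, m, o, p, t or z) and a number, and in addition Gsr, Gss, Gclc, Gclm, Nqo1, Hmox1, Txnrd1, Srxn1, Sod1, Sod2, Sod3, Cat and Nfe2l2. Of the 19938 genes named by a probe set of their own, 48 met this rule. A gene with several such probe sets is represented by its brightest on average; the difference between the groups was not used to choose any of them. Prdx5 and Prdx6, the remaining peroxiredoxin genes, have no such probe set in the annotation used here and were not analysed here.

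Skin was taken from female embryos (E17.5), and RNA of 2 mice was put on each Affymetrix array. The control group (2 arrays) consisted of TRE-Ovol2-Flag mice, which carry a Flag-tagged Ovol2 transgene that needs a tetracycline transactivator to be expressed, or of wild type mice. The group called Ovol2 BT (2 arrays) carried TRE-Ovol2-Flag together with K5-tTA, in which a keratin 5 promoter, active in basal keratinocytes, drives that transactivator. The strain label is CB6F1 for controls and FVB/N for Ovol2 BT although the mice are described as littermates, so genotype and labelled strain cannot be told apart.

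Ovol2 checked the labels: its intensity was 360 and 161 in control skin, against 4367 and 3893 in Ovol2 BT. Median intensities of all probe sets lay between 123 and 132 in the 4 arrays. Markers of several cell types differed between the groups. The 7 adipocyte markers with a value had mean log2 levels of 9.27 and 8.42 in control skin, against 10.85 and 10.90 in Ovol2 BT. Of the 7, 4 were called higher, as were 0.615% of all tested genes. The 8 brown adipocyte markers stood at 6.85 and 6.56 against 8.43 and 8.37. Basal keratinocyte markers were at 11.26 and 11.21 against 10.63 and 10.40, with 3 of 7 called lower (0.348% of all tested genes). Those called were keratins, Krt5 (log2 difference -1.10), Krt14 (-1.24) and Krt15 (-2.29). Trp63 (-0.35), Col17a1 (-0.23), Itga6 (-0.05) and Itgb4 (0.24) were not called. The 5 suprabasal keratinocyte markers with a value stood at 12.53 and 12.23 against 12.03 and 11.97, with 0 called. Melanocyte markers were at 8.74 and 8.82 against 8.26 and 7.93, with 1 of 5 called lower, Tyr (-1.15), beside the same 0.348%. Fibroblast markers, at 11.95 and 12.15 against 12.01 and 12.11, had 0 of 6 called by limma and 0 at an unadjusted p under 0.05. The 4 liver markers with a value, which skin cells hardly express, had means of 9.65 and 8.73 against 7.51 and 7.19. In such tissue, fewer cells of a type and less RNA per cell cannot be told apart.

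Glutathione is a small thiol made from glutamate, cysteine and glycine. Glutathione peroxidases use it to reduce peroxides, glutathione transferases attach it to reactive or foreign compounds, and glutathione reductase returns the oxidised form to use. Peroxiredoxins do similar work with electrons from thioredoxin, while superoxide dismutases and catalase act on superoxide and hydrogen peroxide directly. Many of these genes are targets of NRF2, the transcription factor encoded by Nfe2l2, which in epidermis takes part in defence of keratinocytes against oxidative and chemical stress.

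The family as a whole did not move in one direction, and 1 of its genes passed the test. Differences are Ovol2 BT minus control in log2(intensity + 16), and a gene was called at a limma adjusted p under 0.05 over all 14953 genes tested. Of the 48 genes, 44 passed the filter on low values; Gpx5, Gstp3, Gstt4 and Gsta3 did not. Gpx2 was the only call, 1 of 44, against 0.963% of all tested genes (0.615% higher and 0.348% lower). At an adjusted p under 0.10 there were 2 of 44, Gpx2 and Gstz1, against 1.43% of all tested genes. At an unadjusted p under 0.05, 10 of the 44 were higher and 5 lower, or 34.1%; of all tested genes 10.4% met the same rule, 5.11% higher and 5.24% lower. Positive and negative differences numbered 26 and 18, or 59.1% positive, beside 44.4% of all tested genes. The members' median was 0.10, beside -0.04 for all tested genes. Without Control replicate 2 the number at an unadjusted p under 0.05 was 7 of 44, or 15.9% against 6.05% of all tested genes, and the members' median was -0.017. Without Control replicate 1 the members' median was 0.17.

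**Figure D1:**
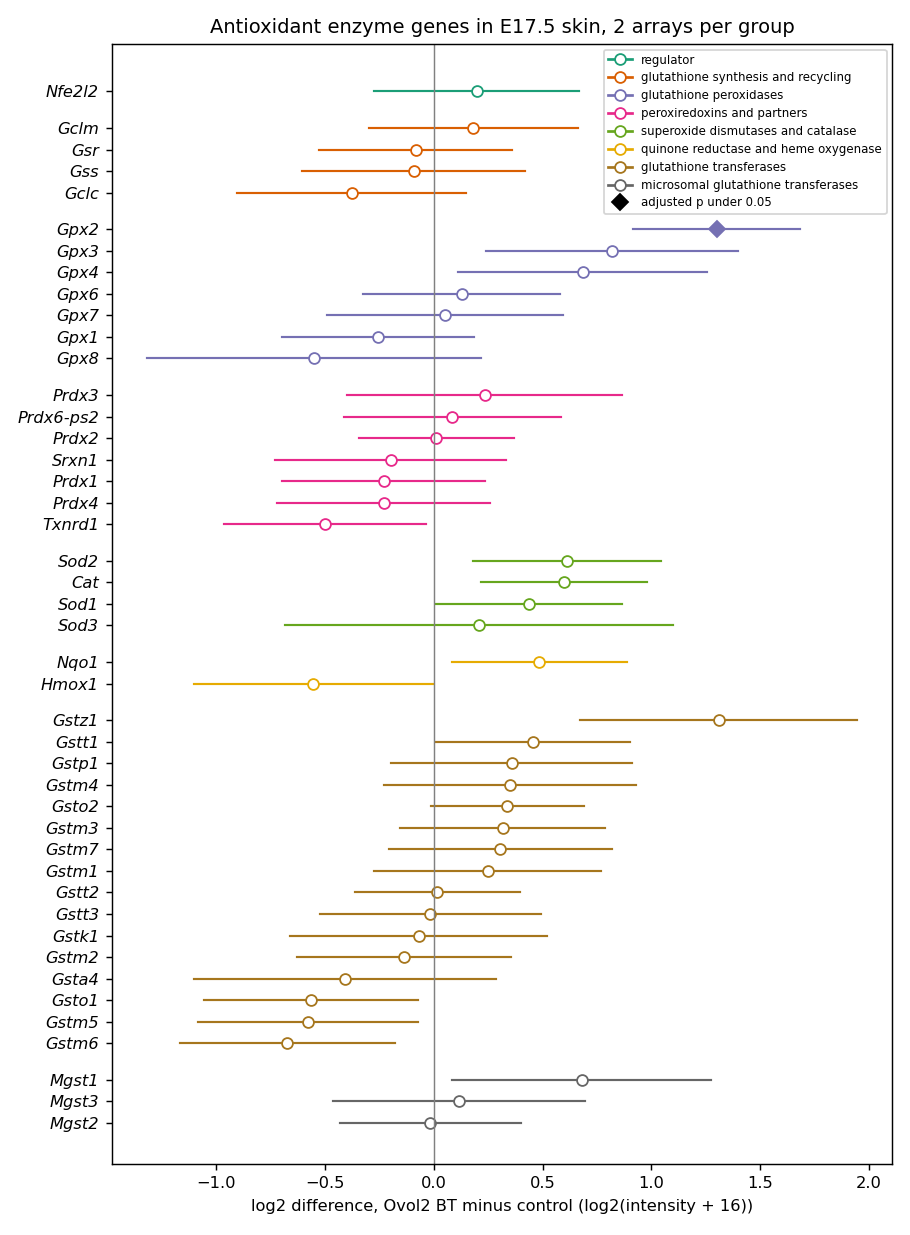
Log2 difference (horizontal axis, Ovol2 BT minus control, 2 arrays per group) of the 44 tested genes, ordered by role, with 95% intervals from the limma fit as lines; the filled diamond marks an adjusted p under 0.05. Gpx2 is the only filled symbol, Gstz1 has the largest estimate at 1.31, and most intervals include 0.

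Differences between the groups were at the median somewhat larger in size among the members than over all tested genes. The median absolute difference was 0.31 among the 44 genes and 0.19 over all tested genes, a description with no test. Values of the arrays did not overlap between groups for 14 members that were higher and 9 that were lower in Ovol2 BT, 23 of 44 in all (52.3%); over all tested genes this held for 42.3%, with 20.4% higher and 21.9% lower. Standard errors ran from 0.15 to 0.39 among the members and from 0.13 to 1.67 over all tested genes.

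**Figure D2:**
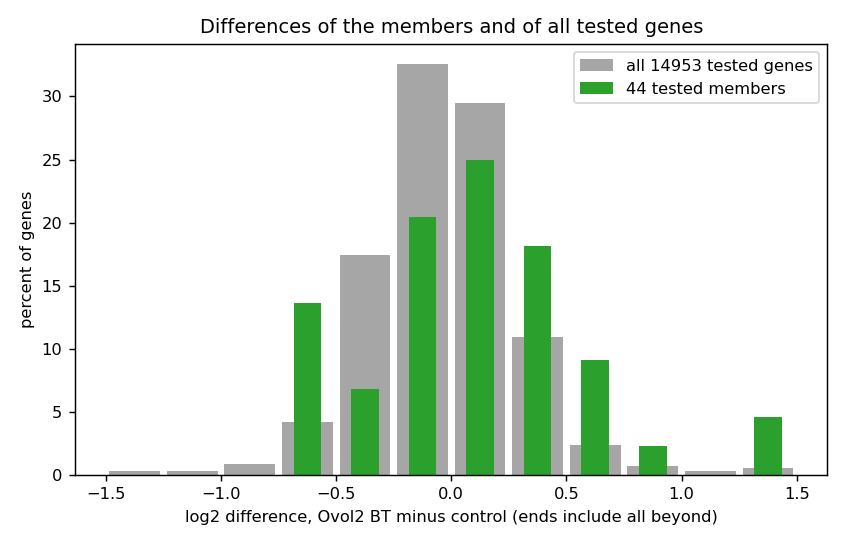
Percent of genes (vertical axis) in bins of 0.25 of the log2 difference (horizontal axis), for all tested genes in grey and the 44 tested members in green, each with 2 arrays per group. The end bars hold all values beyond them. The members ranged from -0.67 to 1.31 and the bars of all tested genes extend further on both sides; a smaller share of members than of all genes lies next to 0, and the members' bar farthest to the right holds Gpx2 and Gstz1.

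Nfe2l2 itself was not called, and its highest value was that of Ovol2 BT replicate 2. Its intensity was 1195 and 1249 in control skin, against 1241 and 1586 in Ovol2 BT. The groups overlapped, with a log2 difference of 0.20 (SE 0.21, 95% interval -0.27 to 0.67, limma adjusted p = 0.755). The classical NRF2 targets went to both sides. Nqo1, a quinone reductase, stood at 127 and 108 in control skin, against 171 and 170 in Ovol2 BT, which did not overlap (0.48, SE 0.18, adjusted p = 0.398). Hmox1, which breaks down heme, had 1542 and 1240 in control skin, against 1132 and 774 in Ovol2 BT. Both of its Ovol2 BT values lay below both controls (-0.55, SE 0.24, adjusted p = 0.478), and the difference was -0.29 without Ovol2 BT replicate 2. Neither gene passed the test.

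Sequence upstream of the genes was searched for the core of the antioxidant response element, the site bound by NRF2, written TGACNNNGC, on both strands. RefSeq (GRCm38.p6) gave 250 bases before the start of 41 of the 48 genes. The core occurred before 9 of these 41 genes, and before 11.5% of all 27025 genes in the table. A match is no evidence of binding, and no match says only that these letters are not in this window. The 6 windows printed here belong to tested genes with values in every array below, 4 of them among the members with the smallest p. Matches before Nfe2l2, Gstm7 and Gsta3, the last not tested, are not printed. The match is in capitals with 20 bases on each side, in the direction of the gene.
Gclm, chr3:122245403-122245451, plus strand: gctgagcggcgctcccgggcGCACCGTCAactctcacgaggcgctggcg
Prdx1, chr4:116685446-116685494, plus strand: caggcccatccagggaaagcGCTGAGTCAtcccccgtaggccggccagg
Txnrd1, chr10:82859094-82859142, plus strand: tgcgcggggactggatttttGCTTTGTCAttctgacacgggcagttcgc
Sod1, chr16:90220686-90220734, plus strand: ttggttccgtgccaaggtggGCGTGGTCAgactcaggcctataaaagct
Mgst1, chr6:138140451-138140499, plus strand: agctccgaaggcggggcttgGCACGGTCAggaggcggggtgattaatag
Gstm5, chr3:107895792-107895840, plus strand: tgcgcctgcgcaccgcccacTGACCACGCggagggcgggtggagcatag
In Gclm, Prdx1, Txnrd1, Sod1 and Mgst1 the core lies on the opposite strand, and in Gstm5 on the gene's own strand. The Prdx1 match overlaps a match to TGACTCA, the AP-1 site, which 12.2% of the 41 genes and 5.16% of all genes hold. Genes with a match differed in both directions: Mgst1 (0.68) and Sod1 (0.44) were higher, Gstm5 (-0.58) and Txnrd1 (-0.50) lower, and none of them passed the test. The letters CCGTTA, a core described for DNA binding by Ovol proteins, occurred before 1 of the 41 genes (2.44%), Gpx3, and before 2.52% of all genes; it lies there on the opposite strand.
Gpx3, chr11:54902604-54902644, plus strand: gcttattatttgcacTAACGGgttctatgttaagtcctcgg

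Genes of glutathione synthesis and recycling showed no detectable difference. Gclc, the catalytic subunit of the rate-limiting ligase, had 428 and 501 in control skin, against 303 and 410 in Ovol2 BT. Its Ovol2 BT values were both lower, by little (-0.38, SE 0.23, 95% interval -0.90 to 0.15, limma adjusted p = 0.605). The difference was -0.17 without Ovol2 BT replicate 1 and -0.59 without Ovol2 BT replicate 2. Gclm, the modifier subunit of the same ligase, had 701 and 804 in control skin, against 788 and 924 in Ovol2 BT. The groups overlapped (0.18, interval -0.30 to 0.66). Gss, which completes glutathione, was at 285 and 216 in control skin, against 262 and 205 in Ovol2 BT, also with overlap (-0.09, interval -0.61 to 0.42). Gsr, the reductase that recycles it, was at 1029 and 1003 in control skin, against 969 and 945 in Ovol2 BT. Its values were the closest together of these 4 genes (-0.08, interval -0.53 to 0.36). These intervals leave out 2-fold changes in either direction for each of the 4.

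Among the glutathione peroxidases, Gpx2 rose. It encodes a selenium-dependent peroxidase known from gut and other epithelia. Its intensity was 58.5 and 60.6 in control skin, against 190 and 152 in Ovol2 BT, with no overlap. The difference was 1.30 (SE 0.17, 2.46-fold, limma adjusted p = 0.0101). Its call held with each array left out (1.15 to 1.45). With the lower 50% of genes left out it was not tested, since its signal is low. The 250 bases before its start are shown because it is the only member called; they hold no match to TGACNNNGC, TGACTCA or CCGTTA.
Gpx2, chr12:76795555-76795804, minus strand: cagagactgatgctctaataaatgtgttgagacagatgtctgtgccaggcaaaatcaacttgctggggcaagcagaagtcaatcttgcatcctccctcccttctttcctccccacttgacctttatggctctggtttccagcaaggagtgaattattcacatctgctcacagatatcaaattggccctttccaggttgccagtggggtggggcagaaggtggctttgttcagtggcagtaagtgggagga

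The other peroxidases did not pass the test. Gpx3, the secreted plasma form, which fat cells also make, had 1688 and 1078 in control skin, against 2771 and 2066 in Ovol2 BT. No Ovol2 BT value was as low as a control (0.82, SE 0.26, adjusted p = 0.293). The difference was 1.14 without Control replicate 1 and 0.50 without Control replicate 2. Gpx4, which reduces lipid peroxides within membranes, had 867 and 722 in control skin, against 1596 and 1026 in Ovol2 BT (0.68, SE 0.25, adjusted p = 0.407). Its Ovol2 BT replicates differed more from each other than the controls did, and its difference was 0.37 without Ovol2 BT replicate 1. Its other probe set gave 0.65. Gpx1, the main cytosolic form, went slightly the other way, from 2832 and 2566 in the controls to 2552 and 1990 (-0.26, interval -0.70 to 0.18). Gpx8, a form of the endoplasmic reticulum, had 1157 and 1355 in control skin, against 565 and 1273 in Ovol2 BT. Its difference of -0.55 (SE 0.34, limma adjusted p = 0.607) rested on Ovol2 BT replicate 1. It was 0.02 without that array and -1.13 without Ovol2 BT replicate 2. Gpx6 (0.13) and Gpx7 (0.05) lay near 0. Gpx5 was left out as a low gene, with intensities from 30.6 to 42.0.

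Superoxide dismutases and catalase all had positive differences (background 44.4%), and none of the 4 was called (background 0.963%). Cat, the peroxisomal enzyme that splits hydrogen peroxide, had 2420 and 2301 in control skin, against 3454 and 3703 in Ovol2 BT. Replicates were close and the groups far apart by comparison (0.60, SE 0.17, 1.51-fold, 95% interval 0.21 to 0.98, limma adjusted p = 0.233). Sod2, the mitochondrial dismutase, showed the same pattern, with 1265 and 1150 in control skin, against 1804 and 1900 in Ovol2 BT. Its difference was 0.61 (SE 0.19, interval 0.18 to 1.04, adjusted p = 0.287). Sod1, the cytosolic copper and zinc enzyme, had 2673 and 2181 in control skin, against 3540 and 3021 in Ovol2 BT (0.44, SE 0.19, adjusted p = 0.474), and its difference was 0.29 without Control replicate 2. Sod3, the extracellular form, varied most within a group: 1550 and 583 in control skin, against 1273 and 953 in Ovol2 BT. Its difference was 0.21 (SE 0.39), and -0.49 without Control replicate 2. The arrays in which Cat, Sod1, Sod2 and Gpx3 were higher are those with the higher adipocyte markers given above (10.85 and 10.90 against 9.27 and 8.42); the part of fat cells in these values was not tested.

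**Figure D3:**
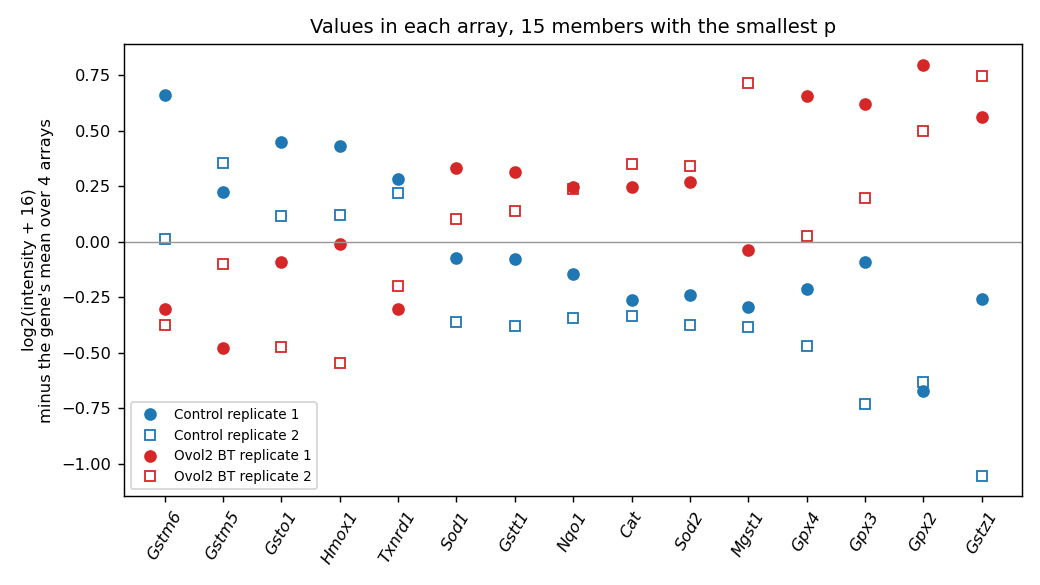
Log2(intensity + 16) in each array minus the gene's mean over the 4 arrays (vertical axis) for the 15 members with the smallest p, ordered by their difference; controls in blue, Ovol2 BT in red, replicate 1 filled and replicate 2 open. In each of these 15 genes the red and blue points do not overlap, 5 genes being lower and 10 higher in Ovol2 BT; the genes were chosen for their p, so this separation is a description.

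Peroxiredoxins and their partners showed small differences. Prdx2, an abundant peroxiredoxin of the cytosol, had 4910 and 4506 in control skin, against 5028 and 4468 in Ovol2 BT, with a difference of 0.01 (95% interval -0.35 to 0.37). Its other probe set gave -0.18. Prdx1, also cytosolic, had 2173 and 2403 in control skin, against 1680 and 2247 in Ovol2 BT (-0.23, SE 0.21, limma adjusted p = 0.708). The other Prdx1 probe set gave -0.31. The mitochondrial Prdx3 had 887 and 898 in control skin, against 783 and 1411 in Ovol2 BT. Its controls agreed closely while the Ovol2 BT arrays lay on either side of them (0.23, interval -0.40 to 0.87). Prdx4, of the endoplasmic reticulum, was at -0.23 and the pseudogene Prdx6-ps2, whose probes could also read Prdx6, at 0.08. Srxn1, the sulfiredoxin that repairs over-oxidised peroxiredoxins, had 474 and 331 in control skin, against 344 and 342 in Ovol2 BT (-0.20, SE 0.23). Txnrd1, the cytosolic reductase of thioredoxin, had 655 and 628 in control skin, against 432 and 465 in Ovol2 BT. These groups did not overlap, with replicates close together (-0.50, SE 0.21, 1.42-fold, adjusted p = 0.447), and the difference stayed between -0.55 and -0.45 with any array left out. No gene of this group was called.

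Glutathione transferases went in both directions. Of 16 tested cytosolic and mitochondrial members 9 were positive and 7 negative, beside 44.4% positive over all tested genes. By limma 0 of the 16 were called (background 0.963%) and 5 were at an unadjusted p under 0.05 (background 10.4%). Gstz1, an isomerase of tyrosine breakdown, had the largest difference of the whole family. Its intensity was 471 and 264 in control skin, against 842 and 960 in Ovol2 BT. The groups were well separated but the controls far from each other (1.31, SE 0.28, 2.48-fold, 95% interval 0.67 to 1.94, adjusted p = 0.0884). It was called with the lower 50% of genes left out (limma adjusted p = 0.0353). The difference was 1.71 without Control replicate 1 and 0.91 without Control replicate 2. Gsto1, an omega class reductase, had 2405 and 1905 in control skin, against 1647 and 1262 in Ovol2 BT, all lower than the controls (-0.57, SE 0.22, adjusted p = 0.423), and -0.37 without Ovol2 BT replicate 2. Its neighbour in the genome, Gsto2, had 66.6 and 77.3 in control skin, against 102 and 88.1 in Ovol2 BT, a difference of the other sign (0.34, SE 0.15, adjusted p = 0.502). Gstk1, the mitochondrial and peroxisomal kappa form, had 886 and 568 in control skin, against 605 and 753 in Ovol2 BT, with full overlap (-0.07, SE 0.26). Of the theta class, Gstt1 had 155 and 123 in control skin, against 208 and 183 in Ovol2 BT (0.45, SE 0.20, adjusted p = 0.473), while Gstt2 (0.01) and Gstt3 (-0.02) lay at 0. Gstt4 was a low gene, with intensities from 39.2 to 60.4.

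The 7 mu class genes lie next to one another in the reference genome, with no other protein-coding gene between them, and did not move together. Their sequences are similar, so probes of one may also read another. Gstm5 had 774 and 847 in control skin, against 468 and 614 in Ovol2 BT (-0.58, SE 0.22, limma adjusted p = 0.422). Gstm6 had 169 and 102 in control skin, against 79.0 and 74.4 in Ovol2 BT, lower in both arrays (-0.67, SE 0.22, adjusted p = 0.314). The difference was -0.999 without Control replicate 2 and -0.35 without Control replicate 1. Gstm1 had 1713 and 1205 in control skin, against 1886 and 1546 in Ovol2 BT, with overlap (0.25, SE 0.23). Gstm3 (0.32, and 0.19 from its other probe set), Gstm4 (0.35) and Gstm7 (0.31) had positive differences and Gstm2 a negative one (-0.14). Without Control replicate 2 the first 3 stood at 0.14, 0.12 and 0.10, in that order. No difference between these genes was tested.

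Alpha and pi class genes are partly read by shared probe sets, which name several genes and therefore no member. Gsta4, which detoxifies products of lipid peroxidation, had 491 and 252 in control skin, against 300 and 229 in Ovol2 BT (-0.41, SE 0.31, limma adjusted p = 0.657). The difference was 0.050 without Control replicate 1 and -0.87 without Control replicate 2. Gsta3 had 83.9 and 66.4 in control skin, against 57.2 and 63.3 in Ovol2 BT, and fell just short of the filter: its mean log2 level was 6.38, at the limit of 6.38. The 4 probe sets shared by Gsta1, Gsta2, Gm3776 and Gm10639 were lower in Ovol2 BT, with differences from -1.15 to -1.09. The brightest of them had 1191 and 889 in control skin, against 396 and 520 in Ovol2 BT. Fitted with such shared probe sets kept in the table, an alternative chosen after seeing the data, it had an adjusted p of 0.0836 (SE 0.24, 2.23-fold). Liver markers were also lower in those arrays (9.65 and 8.73 against 7.51 and 7.19), Alb among them (305 and 865 against 46.1 and 104). Of the 4 liver markers, Afp (2146 and 482 in the controls), Ttr (205 and 131) and Apoa1 (2715 and 484) were higher in Control replicate 1. The shared Gsta probe sets were too, and Alb was higher in Control replicate 2. Within Ovol2 BT, Afp (298 and 108), Ttr (98.8 and 69.1) and Apoa1 (483 and 349) were again higher in replicate 1. There the shared Gsta probe sets (396 and 520 in the brightest) and Alb were higher in replicate 2. The part of liver RNA in the difference of the shared Gsta probe sets was not tested. Gstp1, the pi class enzyme of epithelia, had 2223 and 1649 in control skin, against 3004 and 2009 in Ovol2 BT, with overlap (0.36, SE 0.24, adjusted p = 0.636), and its difference was 0.068 without Ovol2 BT replicate 1 and 0.65 without Ovol2 BT replicate 2. The 2 probe sets shared by Gstp1 and Gstp2 gave 0.57 and 0.55. Gstp3 was a low gene, with intensities from 38.5 to 65.0.

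**Figure D4:**
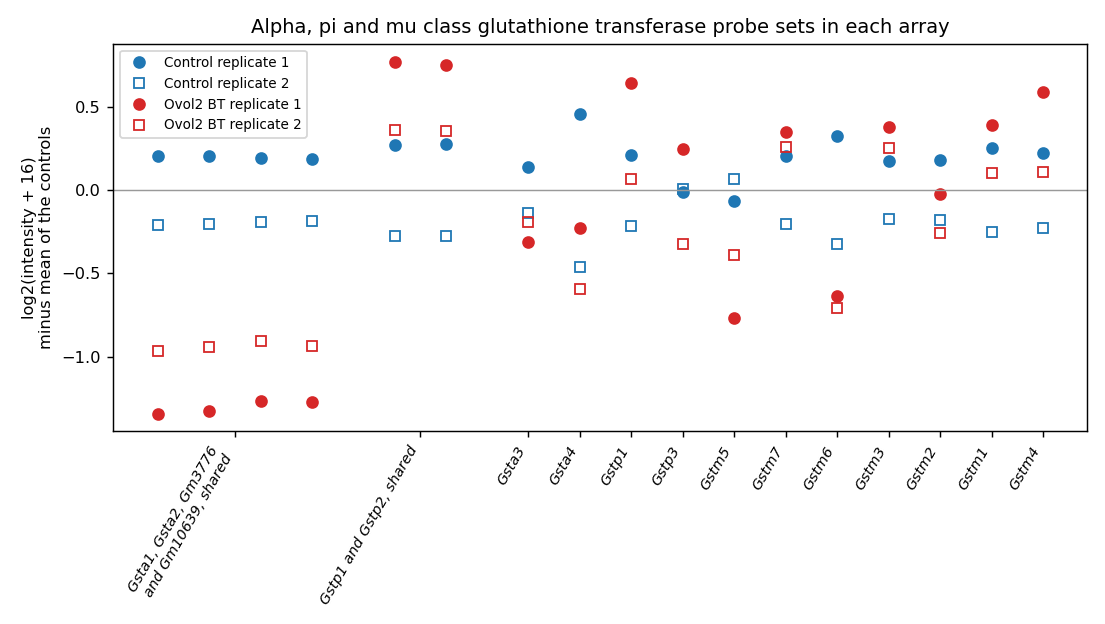
Log2(intensity + 16) in each array minus the mean of the 2 controls (vertical axis) for probe sets of the alpha, pi and mu classes; controls in blue, Ovol2 BT in red, replicate 1 filled and replicate 2 open. The 4 shared Gsta probe sets lie together about 1.1 below the controls in Ovol2 BT, the shared Gstp probe sets lie above them, and the neighbouring mu class genes lie on both sides.

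Of the microsomal transferases, which sit in membranes, Mgst1 had 901 and 847 in control skin, against 1083 and 1830 in Ovol2 BT. Both Ovol2 BT values were higher, replicate 2 by far the more (0.68, SE 0.26, limma adjusted p = 0.423). The difference was 0.30 without Ovol2 BT replicate 2 and 1.05 without Ovol2 BT replicate 1. Mgst3 had 319 and 285 in control skin, against 416 and 258 in Ovol2 BT, which overlapped (0.11, SE 0.26). Mgst2 was at -0.02.

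Other genes of these pathways, from lists that leave out the 48 members, showed few calls. Among 28 tested genes of glutathione supply and use, 0 were called by limma, with a median difference of 0.05. Ggct, which acts in glutathione breakdown, came closest, with 753 and 770 in control skin, against 321 and 378 in Ovol2 BT (-1.09, SE 0.21, 2.13-fold, adjusted p = 0.0576). Of the 17 genes of the thioredoxin system 0 were called (median -0.07). Its mitochondrial reductase Txnrd2 was at 0.66 (adjusted p = 0.334), opposite in sign to Txnrd1, and the methionine sulfoxide reductase Msra at 0.73 (adjusted p = 0.335). Sesn3 was at -0.51 (adjusted p = 0.464), and of the 17 differences 7 were positive and 10 negative. Of 13 genes that supply NADPH, 1 was called: Aldh1l1, a folate enzyme that makes NADPH, rose from 119 and 60.9 to 401 and 365 (1.97, SE 0.27, 3.91-fold, adjusted p = 0.0118). Pgd, of the pentose phosphate pathway, was at 0.75 (adjusted p = 0.248), and Me2, also in this list, at -0.54 (adjusted p = 0.451).

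Partners and further targets of NRF2 included 1 call among 27 tested, the carboxylesterase Ces1d, also abundant in fat, which rose by 2.98 (SE 0.29, limma adjusted p = 0.00451). Slc7a11, the cystine importer that feeds glutathione synthesis, had 172 and 81.6 in control skin, against 278 and 240 in Ovol2 BT (1.02, SE 0.29, adjusted p = 0.241). The carbonyl reductase Cbr3 was at -0.96 (adjusted p = 0.165) and the repressor Bach2 at -0.89 (adjusted p = 0.223). Of 12 genes of cysteine supply 1 was called, Slc1a5, a transporter of glutamine and other neutral amino acids, which rose from 863 and 676 to 2019 and 1611 (1.22, SE 0.22, 2.33-fold, adjusted p = 0.0428). Cth, which makes cysteine from cystathionine, was at 0.63 (adjusted p = 0.297). The selenoprotein list had 0 of 10 called by limma and a median of -0.06. It holds genes of selenoprotein synthesis, on which peroxidases such as Gpx2 depend. It also holds the selenoproteins Selenop (0.11), Selenow (-0.08) and Selenon (-0.04), so its count and median are not of synthesis genes alone. Scly was at 0.42 (limma adjusted p = 0.515) and Secisbp2 at -0.40 (adjusted p = 0.549). Together the 6 lists are to be read beside the 0.963% of all tested genes that were called.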

How the data were processed

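Deposited intensities, on a linear scale with 1 value per probe set, were made with PLIER 2.0 and the Affymetrix software Expression Console 1.1.1, per the submitters' processing notes. How background and arrays were adjusted is not given in the sources used here. Of 35557 probe sets, 21789 name 1 gene in the platform annotation, 1621 several and 12147 none; those naming 1 gene were used, with symbols checked against RefSeq by Entrez ID (21698 matched, 0 changed). Values were used as log2(intensity + 16), which makes changes at low signal look smaller. Genes in the lowest 25% by mean were not tested. Two-sided p-values came from lmFit and trended eBayes in limma 3.58.1 (R 4.3.3), with 6.94 prior and 2 residual degrees of freedom, adjusted over all 14953 genes by Benjamini-Hochberg; 95% intervals use its moderated errors. The fit was tested on simulated data. Tables and figures were made with pandas 2.3.3 and matplotlib 3.10.9 under Python 3.11.15. The titles call the arrays biological replicates. With 2 arrays per group, their number limits the precision. Detection calls were not used here. Settings compared were the pseudocount (1 or 64), the filter (none or 50%), quantile normalization, median centring, the variance model, averaging probe sets of a gene, a replicate block, a threshold of 0.10 and each array left out. Shared probe sets were added after seeing the data. Members, lists and tests were chosen with earlier results of these data known. Values in every array are given for called members, the 15 with the smallest p and a fixed set of 30 genes (2 without a value); of each pathway list, up to 4 genes with the smallest p could be named, and other members and markers were named to account for them.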

Additional observations from a re-analysis of the deposited data

How the results depend on the processing

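Gpx2 was called higher in each of the alternatives in which it was tested; with the lower 50% of genes left out it was not tested. Of 697 values of the 44 members under the 16 alternatives, 658 kept their sign and their side of the threshold, 12 gained a call, 27 changed sign and none lost a call; 28 members kept their sign throughout. The number of members called higher was 6 with the replicate block, 2 at a threshold of 0.10, 1 to 3 with an array left out and 1 under the others; the number called lower was 1 with the replicate block and 0 to 1 with an array left out. Over all genes 323 were higher and 348 lower with the block, 89 were lower at 0.10, and 100 to 220 were higher and 71 to 146 lower with an array left out. Members at an unadjusted p under 0.05 numbered 7 to 15, while 6.05% to 15.3% of all tested genes passed, and the members' median was -0.017 to 0.17 with an array left out. The 7 members called with the block were Gpx2, Gpx3, Gpx4, Gstz1, Cat and Sod2, higher, and Gsto1, lower. The block rests on numbers in the titles alone: deviations of same-numbered arrays correlated at 0.41, no label states what the numbers share, and 1 residual degree of freedom is left. Sign changes concerned uncalled genes. Prdx2 was at -0.083 as the mean of its probe sets, Gstk1 at 0.012, Gstt2 at -0.043 and Gstt3 at 0.015 under quantile normalization, and Gstt3 at 0.0085 and Mgst2 at 0.0095 under median centring. With an array left out, the ranges were -0.45 to 0.051 for Srxn1, -0.28 to 0.093 for Gss, -0.074 to 0.10 for Prdx2, -0.18 to 0.65 for Prdx3, -0.49 to 0.90 for Sod3, -0.22 to 0.44 for Mgst3, -0.87 to 0.050 for Gsta4, -0.0044 to 0.50 for Gstm1, -0.38 to 0.24 for Gstk1, -0.19 to 0.29 for Gpx7, -1.13 to 0.024 for Gpx8, -0.32 to 0.040 for Gstm2, -0.086 to 0.12 for Gstt2, -0.25 to 0.22 for Gstt3 and -0.086 to 0.26 for Prdx6-ps2. A lone array was then assumed to vary like the others, and the cause of these changes was not tested. With a control array left out, the prior degrees of freedom were infinite. Each gene then took the variance of the trend, and its own scatter had no weight in the calls. Signal over background was not analysed here, so low genes such as Gpx2 carry an unknown share of background.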
